A study of Mus musculus with 16 samples.

Results

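The regions described here are the peaks of open chromatin at 5 genes of the signalling lymphocyte activation molecule (SLAM) receptor family on mouse chromosome 1, *Slamf1*, *Slamf6*, *Slamf7*, *Cd48* and *Ly9*, and at *Cd1d1* on chromosome 3. A peak was a member when it lay wholly inside one of the 6 gene bodies or within 20 kb on either side of it, by the GENCODE M21 annotation of the mm10 assembly. Peaks of the different stages that shared at least 1 bp were merged, which gave 68 member regions of 185978 merged regions in all. Of these 68 regions, 65 lay on chromosome 1 and 3 at *Cd1d1*, and 3 regions between *Ly9* and *Slamf7* belonged to the windows of both genes.

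The study mapped open chromatin by ATAC-seq, which uses a transposase to tag exposed DNA, through T cell development in the thymus. Thymocytes were sorted into double negative (DN, CD4- CD8- CD3-), double positive (DP, CD4+ CD8+), CD4 single positive (SP4, CD4+ CD8- CD3+) and CD8 single positive (SP8, CD4- CD8+ CD3+) cells. All 16 libraries came from wild type C57BL/6J animals of 9 weeks, with the same 4 mice at each stage. Cells stained for lineage markers of erythroid, B, myeloid, dendritic, NK and gamma delta T cells were gated out. Peaks were called once per stage on the reads of its 4 mice together, so each stage is 1 list with 1 value per region, with no replicate error, so that no stage could be tested against another. The authors down-sampled libraries to the median depth before pooling, and the pooled stages still differed somewhat in depth. The lists themselves carry no read counts, and an interval given below covers counting error only.

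SLAM receptors are immunoglobulin superfamily proteins on the surface of blood cells, and most of them bind the same receptor on a neighbouring cell. The tails of several of them, SLAMF1, SLAMF6 and LY9 included, recruit the small adaptor SAP, the product of *Sh2d1a*, which brings in the kinase FYN. Natural killer T (NKT) cells are selected in the thymus by double positive thymocytes that present lipids on CD1d, the product of *Cd1d1*, and that engage SLAMF1 and SLAMF6 at the same time. CD48 is a glycolipid-anchored ligand of CD2 and CD244, LY9 is a further self-binding receptor, and SLAMF7 is best known from NK cells, activated lymphocytes and plasma cells.

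The sequences of 9 regions are shown because the stage differences described next turn on them. They are RefSeq sequence of GRCm38.p6 (mm10) on the plus strand, written 5′ to 3′. Capitals mark matches to the consensus letters of a transcription factor motif on either strand, other than the E-box and MYB motifs, which most regions hold. The first stretch runs up to the upstream start site of *Slamf6*, and the second up to its downstream start site. The third lies upstream of *Slamf6* and had no peak at DN.
Slamf6 upstream start site, chr1:171917381-171917514: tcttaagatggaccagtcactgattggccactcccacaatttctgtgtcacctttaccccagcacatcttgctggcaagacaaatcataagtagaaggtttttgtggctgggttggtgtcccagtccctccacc
Slamf6 downstream start site, chr1:171919292-171919491: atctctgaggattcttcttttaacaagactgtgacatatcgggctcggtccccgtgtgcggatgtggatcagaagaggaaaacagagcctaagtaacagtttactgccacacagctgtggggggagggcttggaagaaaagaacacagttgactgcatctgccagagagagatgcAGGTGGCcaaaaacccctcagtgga
Slamf6 upstream region, chr1:171902432-171902631: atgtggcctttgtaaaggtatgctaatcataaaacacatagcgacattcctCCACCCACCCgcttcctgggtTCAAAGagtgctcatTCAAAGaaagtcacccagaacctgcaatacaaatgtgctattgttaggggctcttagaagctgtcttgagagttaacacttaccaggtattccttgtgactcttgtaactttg
The next 3 stretches belong to *Slamf7*, a gene on the minus strand, so that its upstream side has the higher coordinates. They are the bases just upstream of its start site, a region further upstream, and a region downstream that was called at SP8 alone.
Slamf7 start site, chr1:171649008-171649207: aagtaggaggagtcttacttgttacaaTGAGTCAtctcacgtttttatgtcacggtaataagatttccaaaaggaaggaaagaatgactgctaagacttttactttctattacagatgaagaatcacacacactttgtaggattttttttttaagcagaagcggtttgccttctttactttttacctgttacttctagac
Slamf7 upstream region, chr1:171658805-171659004: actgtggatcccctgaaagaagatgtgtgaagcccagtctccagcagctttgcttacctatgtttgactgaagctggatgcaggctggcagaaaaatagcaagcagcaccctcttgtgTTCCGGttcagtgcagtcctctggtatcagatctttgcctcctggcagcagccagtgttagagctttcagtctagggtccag
Slamf7 SP8-only region, chr1:171629275-171629474: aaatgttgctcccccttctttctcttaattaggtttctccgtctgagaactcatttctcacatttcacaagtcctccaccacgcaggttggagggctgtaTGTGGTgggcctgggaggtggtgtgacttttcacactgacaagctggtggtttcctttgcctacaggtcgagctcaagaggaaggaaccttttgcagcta
The last 3 are coding exon 3 of *Slamf1*, the region between *Ly9* and *Slamf7*, and a DN-only region downstream of *Ly9* in an intron of *Cd244a*.
Slamf1 exon 3, chr1:171777147-171777346: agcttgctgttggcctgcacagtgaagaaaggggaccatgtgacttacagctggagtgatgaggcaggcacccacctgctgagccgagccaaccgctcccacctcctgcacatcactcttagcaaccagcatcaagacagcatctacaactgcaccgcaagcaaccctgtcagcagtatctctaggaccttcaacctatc
Ly9 to Slamf7, chr1:171619145-171619344: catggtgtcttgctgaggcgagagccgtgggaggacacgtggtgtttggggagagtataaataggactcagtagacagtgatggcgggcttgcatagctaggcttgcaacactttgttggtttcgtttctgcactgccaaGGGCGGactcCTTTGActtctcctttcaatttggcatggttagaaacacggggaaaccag
Ly9 DN-only region, chr1:171576837-171577036: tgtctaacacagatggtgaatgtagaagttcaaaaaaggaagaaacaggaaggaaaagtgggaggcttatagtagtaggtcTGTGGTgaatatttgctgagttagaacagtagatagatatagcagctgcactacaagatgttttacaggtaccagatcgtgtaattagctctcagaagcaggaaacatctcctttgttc
In these stretches *Slamf7* carried an AP-1 match at its start site and an ETS match in the upstream region. The *Slamf6* upstream region held overlapping KLF matches and a pair of TCF7/LEF1 matches. RUNX matches stood in the *Slamf7* SP8-only region and the *Ly9* DN-only region, and the *Slamf6* downstream start site held a CTCF core match.

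The height of a region is given as the percentile of its fold enrichment within the list of its stage. It is the percent of peaks in the same list with a lower fold enrichment, and 0 stands for no peak. A pair of values was counted as different when they stood at least 25 percentile points apart. Fold enrichment itself, the reads at the summit over the local background, is given where it helps.

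**Figure D1:**
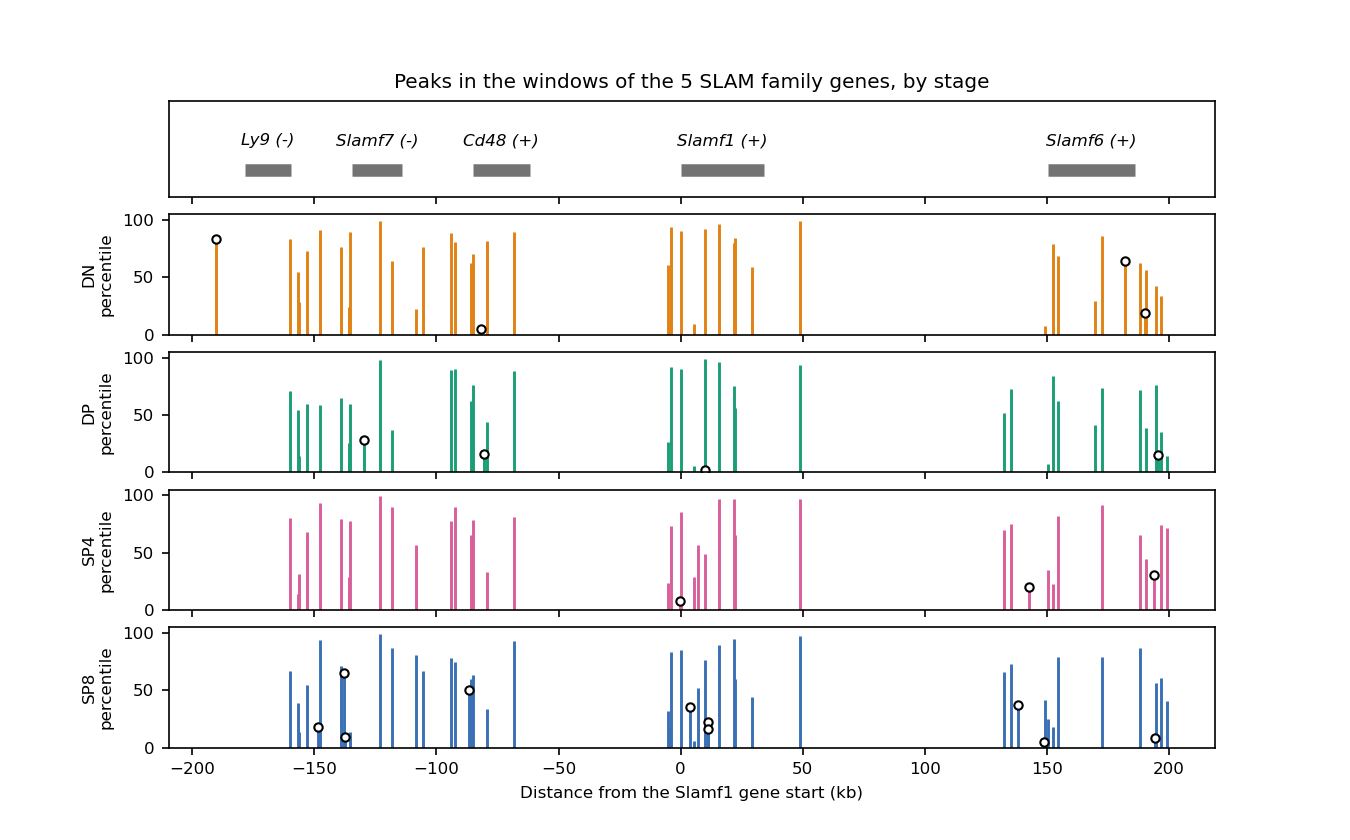
Peaks in the windows of the 5 SLAM family genes at each stage, placed by distance from the Slamf1 gene start (kb, plus-strand direction); line height is the percentile of fold enrichment within the list of that stage, and open circles mark regions called at that stage alone. The SP8 panel carries 10 open circles, against 4 at DN, 4 at DP and 3 at SP4, and most of them are low.

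The start sites of *Slamf6* and *Slamf7* differed in height between the stages, whereas those of *Slamf1*, *Cd1d1*, *Cd48* and *Ly9* stayed within 25 points. The *Slamf6* value was lower at SP4 and at SP8 than at DP, as were 5.95% and 5.41% of start sites of protein-coding genes. The *Slamf7* site was lower at DP than at DN, as were 7.73% of start sites, and higher at SP4 and at SP8 than at DP, as were 2.34% and 1.95%. No member start site differed by 25 points between SP4 and SP8, where 1.84% were higher and 1.88% lower at SP8. Where a gene had several start-site regions, the highest at each stage was taken. For *Slamf6* this was a downstream region at DN and DP and an upstream one at SP4 and SP8. The downstream region was lower at SP4 than at DP, whereas the upstream one was higher. The heights at the 4 stages spanned 59.1 points for *Slamf6* and 52.5 points for *Slamf7*. Among 13097 protein-coding genes with a region at a start site, 95.2% spanned less than *Slamf6* and 93.4% less than *Slamf7*. The span was 16.3 points for *Ly9*, 14.9 for *Cd48*, 5.48 for *Slamf1* and 3.25 for *Cd1d1*.

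**Figure D2:**
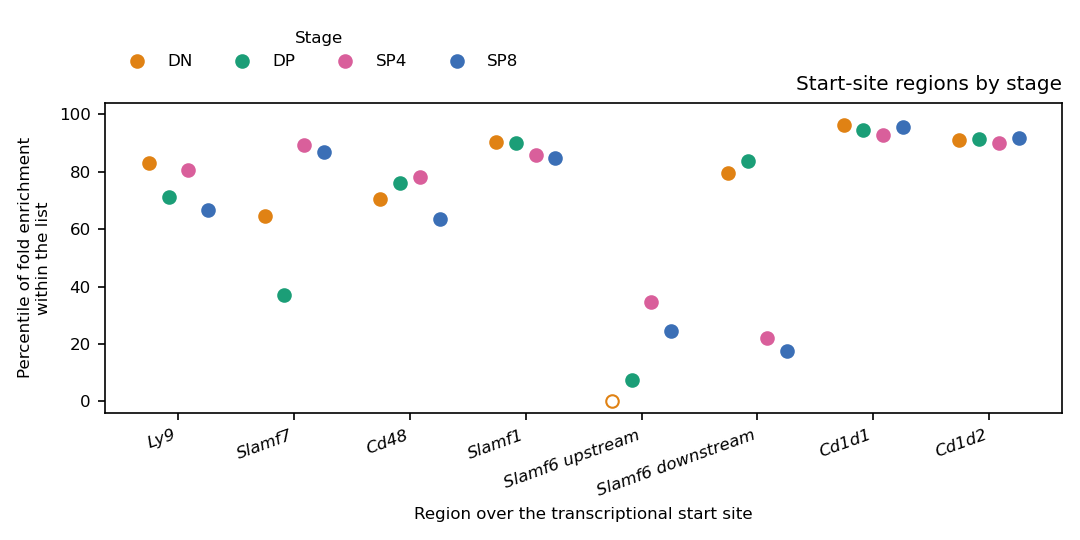
Height of the region over the transcriptional start site of each member and of the paralog Cd1d2, as the percentile of fold enrichment within the list (vertical axis), with 1 point per stage; an open point at 0 marks no peak. The points of Cd1d1 lie between 92.9 and 96.2, whereas the downstream start site of Slamf6 drops from 83.7 at DP to 17.6 at SP8.

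*Slamf6*, the receptor also called Ly108, lies at chr1:171917515-171953170 on the plus strand and had 21 regions. It has annotated start sites in 2 separate regions. The downstream region, chr1:171919238-171919595, covers a protein-coding start site and the first exon of the antisense transcript *Gm37065*. Its percentile was 79.5 at DN and 83.7 at DP, then 22.3 at SP4 and 17.6 at SP8. The fold enrichment there was 11.2 at DN and 13.1 at DP, but 3.88 at SP4 and 3.59 at SP8. With a single value per stage, DN and DP thus stood above SP4 and SP8 in percentile and in fold enrichment. The share of start sites in general with this order of stages was not counted. The region upstream, chr1:171917381-171917797, covers the start sites of the other protein-coding transcripts and was higher at SP4 than at DP. No peak was called there at DN, and its percentile was 7.56 at DP, then 34.6 at SP4 and 24.6 at SP8, where the difference from DP was under 25 points. At SP4 its fold enrichment was 4.54, below the 5.93 of the median SP4 peak, but ranked by q-value it stood above the median, at 59.6 for SP4 and 51.98 for SP8. At SP4 and SP8 the upstream start site thus stood above the downstream one, though by less than 25 points. Because peaks carry no strand, the parts of *Slamf6* and *Gm37065* in the downstream region cannot be told apart.

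On the 5′ side of *Slamf6*, 2 regions were absent at DN and present at every later stage. The first, at chr1:171899146-171899506 and 18.2 kb upstream, had a percentile of 51.4 at DP, then 69.5 at SP4 and 66.0 at SP8. The second, at chr1:171902362-171902645 and 15.0 kb upstream, had 72.8 at DP, then 74.9 at SP4 and 72.8 at SP8. Both were intergenic. Closer to the gene, a region 1.35 kb upstream in an intron of *Gm37065* was low at DN (7.23), absent at DP and SP4 and reached 41.4 at SP8. A further region 12.2 kb upstream was called at SP8 alone, at a percentile of 37.0.

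Within the gene, *Slamf6* held one region over coding exon 3 and another, mostly intronic, that took in coding exon 6. The latter was 877 bp wide, shared 74 bp with the exon and had its SP4 summit outside it. The exon 3 region, chr1:171936444-171936977, was called at DN (29.7) and DP (41.5) and at neither single positive stage. The exon 6 region, chr1:171939048-171939924, had the highest percentile of the gene at DN and SP4 and was called throughout, with 86.3 at DN and 74.0 at DP, then 91.8 at SP4 and 78.7 at SP8. A region in the 3′ untranslated part of the last exon, chr1:171948964-171949399, was called at DN alone at a percentile of 64.5.

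The 3′ flank of *Slamf6* held regions of several patterns. At 46.3 kb from the gene start (chr1:171963638-171963968) the percentile was 33.9 at DN and 35.1 at DP, then 73.8 at SP4 and 60.9 at SP8. At 48.9 kb (chr1:171966171-171966717) it was 0 at DN and 13.8 at DP, then 71.2 at SP4 and 40.7 at SP8. Both regions were thus higher at the single positive stages, the latter also higher at SP4 than at SP8. In contrast, the region at 44.3 kb was called at DN (42.6), DP (76.2) and SP8 (56.6) but not at SP4. The region at 40.1 kb was called at DN (56.0), DP (38.8) and SP4 (44.5) but not at SP8. At 43.5 kb a region was called at SP4 alone, with a percentile of 30.8. The region at 37.8 kb had 62.9 at DN and 72.2 at DP, then 65.2 at SP4 and 86.5 at SP8, a span of less than 25 points.

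*Slamf1*, the founding receptor of the family, lies at chr1:171767127-171801184 on the plus strand and had 17 regions. Its start site (chr1:171766987-171767444) was high throughout, with a percentile of 90.3 at DN and 90.2 at DP, then 85.7 at SP4 and 84.8 at SP8. Among the *Slamf1* regions called at all 4 stages, the largest span lay over coding exon 3, at chr1:171777065-171777468. There the percentile was 92.5 at DN and 98.7 at DP, then 48.6 at SP4 and 76.7 at SP8, and the fold enrichment 18.0, 27.5, 5.75 and 12.1 in the same order. This exon region was the highest *Slamf1* peak at DP and was higher at SP8 than at SP4.

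Other *Slamf1* regions followed the opposite course or were highest at DN. A region in an intron, 21.7 kb from the start, had 79.99 at DN and 75.4 at DP, then 96.6 at SP4 and 94.5 at SP8, a difference of less than 25 points, although its fold enrichment was 11.4, 10.1, 24.6 and 22.4. Its neighbour at 22.4 kb was highest at DN, at 84.6, against 56.6 at DP, then 65.1 at SP4 and 60.0 at SP8. The region 5.15 kb upstream of the gene was also highest at DN (61.0), against 26.8 at DP, then 23.9 at SP4 and 31.8 at SP8. An intronic region at 6.99 kb was called at the single positive stages alone, at 56.8 for SP4 and 52.2 for SP8. One at 29.3 kb was called at DN (58.8) and SP8 (43.99) and at neither DP nor SP4. At 4.02 kb an intronic region was called at SP8 alone, at a percentile of 35.5. By its highest stage, DN, the first region of the window was intergenic, 48.8 kb from the gene start at chr1:171815593-171816249, with percentiles of 93.3 to 98.9 at all stages. Another high region, in an intron at 15.6 kb, held 89.3 to 97.1.

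*Ly9* lies at chr1:171588624-171607410 on the minus strand and had 7 regions. Its start site (chr1:171606681-171607677) had a percentile of 83.2 at DN and 71.3 at DP, then 80.5 at SP4 and 66.9 at SP8. No peak was called at any stage in the 29512 bp from chr1:171577169 to chr1:171606680, which take in nearly the whole gene body and part of the overlapping *Cd244a*. Repeats masked in the reference made up 20.3% of that stretch and 38.5% of the span from the first to the last member region on chromosome 1. In the other long stretches of that span without a peak the share was higher or near that of the span, from 37.8% to 57.5%. At every stage but DP the highest *Ly9* region lay 11.8 kb upstream between *Ly9* and *Slamf7*, at chr1:171619091-171619413. It was lower at DP than at the other stages, with 91.5 at DN and 58.8 at DP, then 93.5 at SP4 and 93.9 at SP8. The fold enrichment was 17.3, 6.55, 20.8 and 21.8, so that DP stood apart from the rest.

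A pair of other *Ly9* regions differed between stages. One in an intron of *Cd244a*, 30.4 kb from the *Ly9* start (chr1:171576777-171577168), was called at DN alone. Its percentile was 83.6 and its fold enrichment 12.8, the highest of the single-stage member regions. The other, 2.82 kb upstream, had 54.5 at DN and 54.6 at DP, then 14.1 at SP4 and 38.9 at SP8.

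*Cd48*, at chr1:171682009-171705258 on the plus strand, had 9 regions and few stage differences. Its start site (chr1:171681526-171682354) is shared with the antisense gene *A630035G10Rik* and had a percentile of 70.5 at DN and 76.3 at DP, then 78.3 at SP4 and 63.4 at SP8. A further 3 regions reached 89.7 to 92.7 at their highest stage and stayed within 25 points. They lay 8.86 kb and 7.22 kb upstream and in an intron 16.8 kb downstream of the start. An intronic region at 5.62 kb (chr1:171687489-171687769) was high at DN alone, with 82.0 there against 43.7 at DP, then 33.5 at SP4 and 34.1 at SP8. A region 1.75 kb upstream, in an exon of *A630035G10Rik*, was called only at SP8 in these lists, at a percentile of 50.3.

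*Slamf7*, at chr1:171632403-171653035 on the minus strand, had 14 regions in its window. Its start-site region, chr1:171648887-171649228, covers the start of 4 of 5 annotated transcripts. The percentile was 64.5 at DN and 37.0 at DP, then 89.5 at SP4 and 86.8 at SP8, and the fold enrichment 7.54, 4.44, 17.5 and 16.5. DP was the lowest stage, and both single positive stages stood above both earlier ones. They stood above DN by less than 25 points, only just so at SP4. From DN to DP the percentile dropped by 27.5 points, and when each list was reduced to the same number of peaks it dropped by 13.6 points, under the 25 that counted. No peak covered the fifth annotated start site, at chr1:171653035. Distances at *Slamf7* are counted from that site, and the start-site region lies 3.98 kb downstream of it.

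The flanks of *Slamf7* also distinguished the stages. Upstream at 5.89 kb (chr1:171658806-171659035) the percentile was 22.3 at DN and 0 at DP, then 57.1 at SP4 and 80.6 at SP8. At 8.59 kb upstream (chr1:171661474-171661779) a region was called at DN (76.3) and SP8 (66.6) and at neither DP nor SP4. On the 3′ side, 23.8 kb from the gene start, a region of 540 bp at chr1:171628965-171629504 was called at SP8 alone. Its percentile of 65.0 was the highest of the SP8-only member regions. Closer to the gene, at 21.4 kb (chr1:171631520-171631766), SP8 was the lowest stage, with 89.2 at DN and 59.7 at DP, then 77.2 at SP4 and 13.9 at SP8. A low neighbour at 21.6 kb had 11.2, 25.7, 28.5 and 0 in the same order. By the highest percentile at any stage, the first region of the cluster was in a *Slamf7* intron at 9.24 kb (chr1:171643496-171644101), with 99.5, 97.7, 99.4 and 99.1, although at DP exon 3 of *Slamf1* stood above it. Another intronic region, at 15.6 kb, was called at DP alone with a percentile of 28.1.

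*Cd1d1* lies at chr3:86995834-86999441 on the minus strand and had few regions, all high at every stage. All 3 regions of its window were called at all 4 stages. The start-site region had a percentile of 96.2 at DN and 94.6 at DP, then 92.9 at SP4 and 95.5 at SP8. At DP, 84.7% of genes with a start-site region had a lower one. A region 22.8 kb downstream of the start (chr3:86976458-86976889) had 96.8, 97.7, 98.98 and 97.9. Between them lay the start site of the paralog *Cd1d2*, with 91.0, 91.4, 89.9 and 91.7. The authors kept uniquely mapped reads, and the effect of the similarity of these paralogs on the height of either region was not tested.

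**Figure D3:**
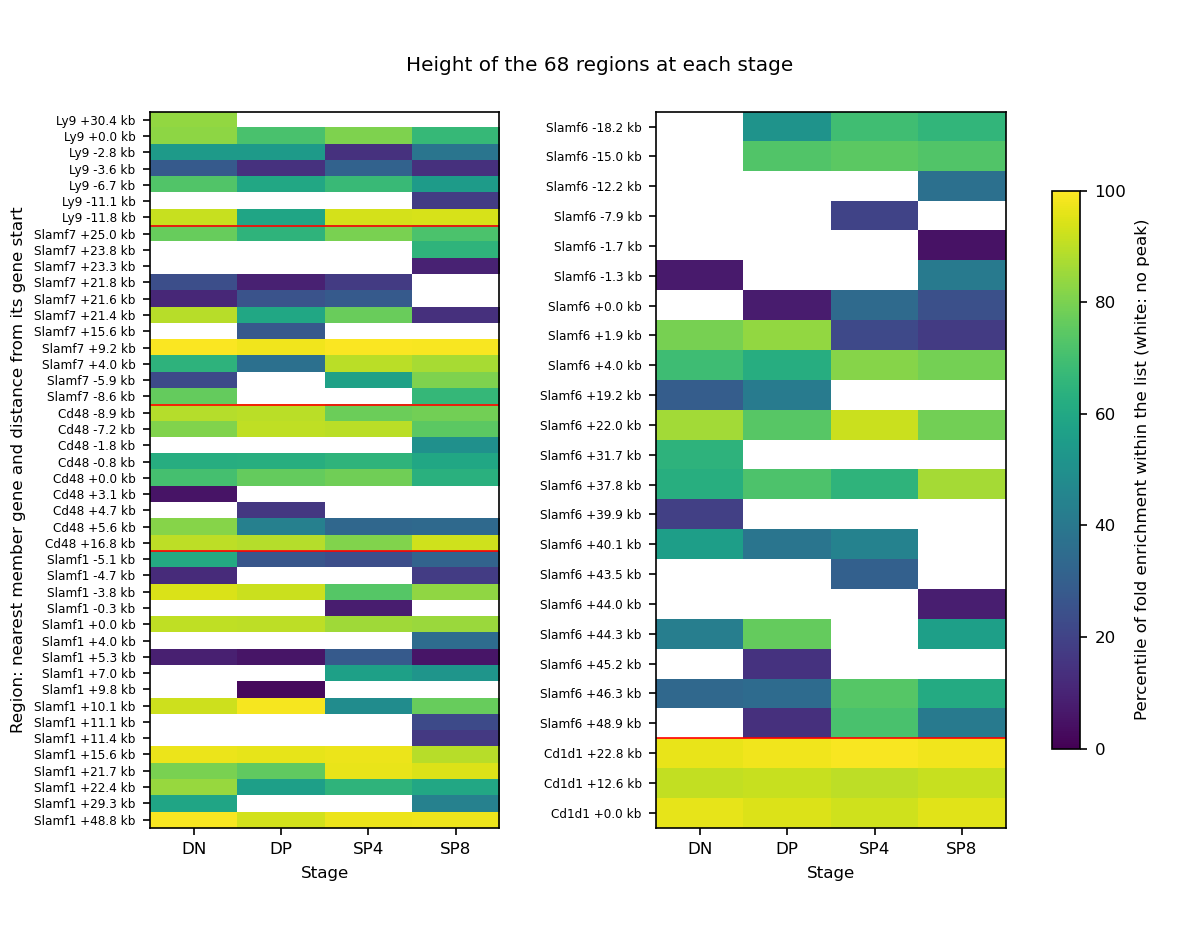
Height of the 68 regions (rows, in genome order, labelled by nearest member gene and signed distance from its start in kb) at each stage (columns); colour is the percentile of fold enrichment within the list and white means no peak. The 3 Cd1d1 rows are uniformly high, whereas rows with white cells are frequent at Slamf6, Slamf7 and Slamf1.

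Counted per list, the 6 windows held 49 peaks at DN, 49 at DP, then 46 at SP4 and 56 at SP8. These were 0.0326% of the DN list (95% Wilson interval 0.0247 to 0.0431), 0.0457% of the DP list (0.0346 to 0.0605), 0.0400% of the SP4 list (0.02997 to 0.0533) and 0.0536% of the SP8 list (0.0413 to 0.0696). The DN list is the longest, with 150139 peaks against 107110, 115074 and 104411. The median fold enrichment of the member peaks was 6.69 to 9.55 over the 4 lists, above the 5.45 to 6.11 of the whole lists. Per 100 kb of window, *Slamf6* had 27.8 regions, *Slamf7* 23.1, *Slamf1* 23.0, *Cd48* 14.2, *Ly9* 11.9 and *Cd1d1* 6.88. The median of 20780 protein-coding genes was 13.8, and 87.1% of them had a lower density than *Slamf6* and 29.0% a lower one than *Cd1d1*.

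Of the 68 member regions, 46 were called at DN, where the share over all merged regions was 75.7%, and 45 at DP (all regions 53.9%). At SP4 44 were called (all regions 58.3%) and at SP8 53 (all regions 53.0%). Regions called at all 4 stages made up 32 of the 68, or 47.1%, against 34.1% of all regions. They were wider than single-stage regions, with a median of 441 bp against 149 bp, and the same contrast held over all regions (465 and 141 bp). A merged region spans all of its peaks, so joining more peaks can only widen it, and this contrast is partly built in. The summits of the regions called at all 4 stages moved by a median of 39 bp between stages. In 19 of the 32 they stayed within 50 bp, and the largest spread was 370 bp. A further 15 regions were called at 2 or 3 stages (22.1%, all regions 27.4%).

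The remaining 21 regions were called at a single stage (30.9%, all regions 38.5%), and SP8 had the most of them. There were 10 SP8-only regions, 14.7% of the members against 4.21% of all regions. Close neighbours were counted singly here, as they were over all regions. Such neighbours stood 23.8 and 23.3 kb from the *Slamf7* start, and 11.1 and 11.4 kb from the *Slamf1* start. DN-only regions numbered 4 (5.88%, all regions 21.7%), DP-only regions 4 (all regions 5.17%) and SP4-only regions 3 (all regions 7.39%). With the same number of peaks from each list, SP8-only regions made up 18.2% of members and 7.05% of all regions. In the gene bodies without flanks they were 3 of 26 regions, or 11.5%. The single-stage regions were mostly low. Their median percentile was 19.0 (25.05 over all single-stage regions), and 11 of the 21 lay below the 20th. Only the 4 named above reached the 50th, at *Ly9* and *Slamf6* for DN and at *Slamf7* and *Cd48* for SP8 (4 of 21, all single-stage regions 16.6%). No single-stage region lay on a start site, and 7 of the 8 regions on a start site, that of *Cd1d2* included, were called at all 4 stages. The exception was the upstream start site of *Slamf6*. The same shares over all start-site regions were not counted, so these counts are a description only.

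**Figure D4:**
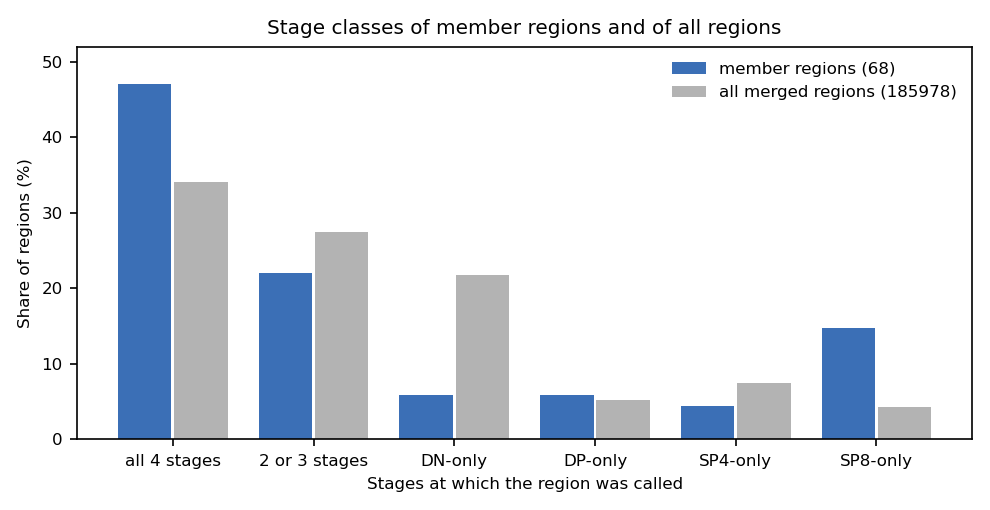
Share of the 68 member regions and of all 185978 merged regions (bars, percent) by the stages at which a peak was called. SP8-only regions make up 14.7% of members against 4.21% of all regions, and DN-only regions 5.88% against 21.7%.

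Some sets of stages skipped a step of development. Regions called at DN and SP8 but at neither DP nor SP4 numbered 4, beside 2.11% of all regions, with 2 at *Slamf1* and 1 each at *Slamf6* and *Slamf7*. Regions called at every stage but DN also numbered 4, beside 1.77% of all regions, and all of them lay at *Slamf6*.

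From DN to DP, 10 of 54 member regions were lower by at least 25 points, or 18.5% (all regions 30.4%), and 4 were higher, or 7.41% (all regions 7.47%). The lower ones were spread over all 5 SLAM genes, and 3 of the 4 higher ones lay at *Slamf6*. From DP to SP4, 8 of 50 were higher (16.0%, all regions 20.7%) and 6 lower (12.0%, all regions 14.9%). These shares were all near or below those of the genome.

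From DP to SP8, 13 of 61 member regions were higher, or 21.3% (all regions 16.2%), and 6 were lower, or 9.84% (all regions 17.7%). *Slamf7* and *Slamf6* held 4 each of the 13. Between the single positive stages, 9 of 59 regions were higher at SP8 than at SP4, or 15.3% (all regions 8.87%), and 5 were lower, or 8.47% (all regions 17.0%). With lists of equal length the count of lower regions was 3. SP8-only regions at the 25th percentile or above count as higher both from DP to SP8 and from SP4 to SP8. The counts of higher regions in these pairs are thus not separate from each other or from the count of SP8-only regions. Over the 4 pairs of stages 31 regions differed at least once, all on chromosome 1 (31 of 68, all regions 53.8%). Among the 32 regions called throughout, 10 spanned at least 25 points (all regions of that kind 41.8%).

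**Figure D5:**
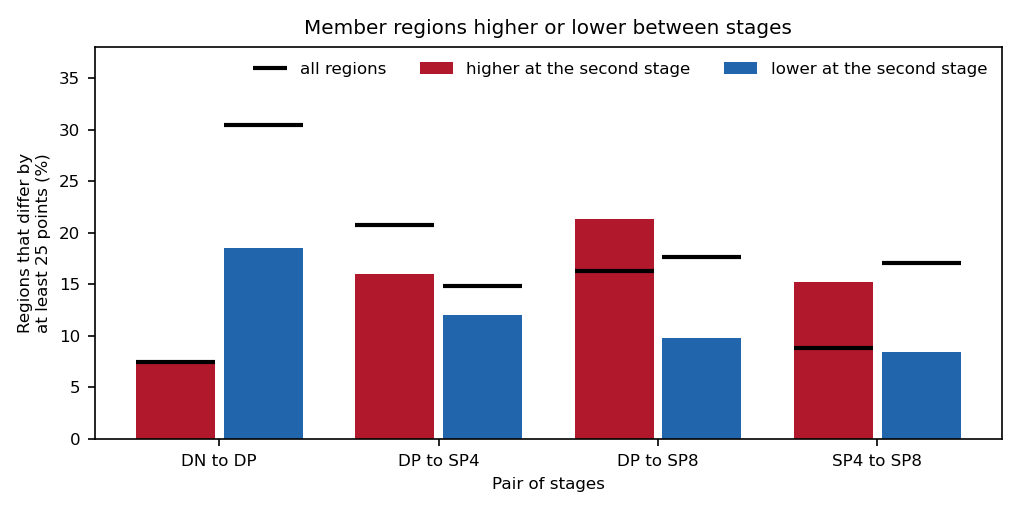
Share of member regions (bars, percent of those called at 1 or both stages of the pair) that were higher or lower by at least 25 percentile points at the second stage; black lines give the same share over all merged regions. Higher regions exceed the black line from DP to SP8 (21.3% against 16.2%) and from SP4 to SP8 (15.3% against 8.87%). SP8-only regions at the 25th percentile or above count as higher in both of these pairs.

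The start sites of the other genes of the pathway mostly stayed within 25 points. Of 20 genes, 16 had a region on a start site, all 16 were called at every stage, and 4 of them differed by at least 25 points in a pair of stages. The matching shares over all protein-coding genes were not counted, so these counts only describe the listed genes. None of the 16 was higher at DP than at DN, as 2.14% of start sites were in general. *Cd244a*, a receptor for CD48, was lower at DP than at DN, as were 7.73% of start sites in general, with 84.0 at DN and 57.7 at DP, then 59.2 at SP4 and 59.1 at SP8. *Slamf9* had 87.0, 28.1, 57.6 and 41.9 and was lower at DP than at DN and higher at SP4 than at DP (2.34% of start sites). *Cd84*, a self-binding receptor, stayed between 61.8 and 70.6, and *Slamf8* had no region on a start site.

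Of the 7 genes for adaptors and enzymes of SLAM signalling, 4 had a start-site region and none of them differed by 25 points. *Fyn* held 93.5, 92.7, 88.9 and 90.5. *Sh2d1b1* and *Sh2d1b2* had no start-site region, and *Sh2d1a* lies on chromosome X, for which the lists hold no peak. Of the 6 genes of the CD1d group, all had a start-site region and none differed by 25 points. *B2m*, the light chain of CD1d, had 92.2, 94.7, 90.6 and 85.2, and *Mttp*, which loads lipid onto CD1d, had 90.2, 96.4, 90.3 and 89.99. Of the 3 NKT lineage genes, *Zbtb16*, which encodes the NKT cell regulator PLZF, had 79.9, 57.1, 4.25 and 54.4. *Prkcq*, a T cell receptor kinase, had 29.1, 48.0, 9.79 and 40.8. Both were lower at SP4 than at DP (5.95% of start sites) and higher at SP8 than at SP4 (1.84%). *Egr2* stayed between 77.7 and 82.6.

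Start sites of lineage markers were examined as a check of the stage labels. *Ptcra*, the pre-T cell receptor alpha gene, had 94.5 at DN and 92.3 at DP, then 28.2 at SP4 and 15.7 at SP8. *Zbtb7b*, the CD4 lineage regulator, had a start-site region at SP4 alone (56.4). *Cd8a* had 71.4 at DN and 56.1 at DP, then 18.7 at SP4 and 70.7 at SP8, so that DN was not low there. Other markers did not follow their labels at the start site. *Il2ra*, a DN marker, had 84.8, 80.3, 92.2 and 93.4, and the single positive markers *Ccr7* (98.3, 97.2, 93.1 and 90.8) and *Il7r* (91.9, 96.2, 84.1 and 74.3) had their lowest values at SP8. Of 15 markers of B, myeloid, NK, erythroid and dendritic cells, 5 had a start-site region at DN and 3 at each later stage. Their summed percentile was 317 at DN and 202 at DP, then 235 at SP4 and 239 at SP8. The DN sum includes the myeloid gene *Lyz2* (88.4) and the dendritic cell gene *Itgax* (15.4), which were called at DN alone. The myeloid gene *Itgam* went the other way, with 60.7 at DN and 45.6 at DP, then 87.0 at SP4 and 91.5 at SP8. *Pax5* (90.6, 89.5, 93.1 and 86.3) and *Eomes* (61.4, 66.6, 55.0 and 61.2) were not highest at DN. The remaining 10 markers, *Csf1r* among them, had no start-site region at any stage. SLAM receptors are expressed on many blood cells, and the part of other cells in the DN-only and DN-high regions was not tested. A peak list also cannot tell apart more open chromatin per cell and more cells with open chromatin.

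In height over the 4 stages, the genes most like a member were found by the distance between their start-site percentiles over 13090 protein-coding genes. For *Slamf1* the nearest were *Cept1* and *Dram2*, which share a region, at 0.320 points, and *Rock1* at 1.15. For *Cd1d1* they were *Wdr75* at 0.728, *Slc39a1* at 1.24 and *Acap2* at 1.28. Such steady high profiles were common, since 14.3% of genes lay within 10 points of *Slamf1* and 23.2% within 10 points of *Cd1d1*. The nearest to *Ly9* were *Fbxl15* (2.91), *Galnt3* (3.41) and *Gem* (3.68), and to *Cd48* they were *Rpl4* (3.10), *Gpx7* (3.78) and *Eif4g1* (4.04). No gene lay within 10 points of *Slamf7* or *Slamf6*. The nearest to *Slamf7* were *Itgam* and *Gm49368*, which share a region, at 10.8 points, and *Gbp10* at 12.2. Those nearest to *Slamf6* were *Syn2* (11.2), *Gcgr* (13.1) and *Cpsf4l* (15.4). The *Slamf6* profile used here joins its downstream start-site region at DN and DP to its upstream one at SP4 and SP8. It is thus not the profile of a single region.

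Motif matches were counted in the 200 bp around each summit, on both strands and without mismatch. AP-1 letters (TGANTCA) stood in 12 of the 68 member regions, or 17.6%, against 7.18% of all regions. TCF7/LEF1 letters (CTTTGA) stood in 19, or 27.9%, against 16.0%, and ETS letters (CCGGAA) in 7, or 10.3%, against 4.89%. Fewer members than regions in general held the SP letters GGGCGG (4.41% and 10.4%), a CTCF core of AGGGGGC or AGGTGGC (5.88% and 12.3%) or the half-site AGGTCA of nuclear receptors (4.41% and 9.46%). RUNX letters (TGTGGT) stood in 27.9% of members and 25.2% of all regions. The GATA letters AGATAA stood in 8.82% and 8.07%, the MYB letters AACNG in 73.5% and 72.2%, and the E-box letters CANNTG in 67.6% and 71.9%. For KLF (CCACCC) the shares were 14.7% and 19.7%, and for EGR (GCGTGGG) 1.47% and 1.91%. Member windows contained 46.4% G and C against 51.6% in all regions, and the part of base composition in these shares was not tested. In windows of 100 bp the AP-1 shares were 11.8% and 3.88% and the TCF7/LEF1 shares 17.6% and 7.64%. There the half-site shares came to 4.41% and 4.52%, while RUNX (23.5% and 15.8%) and MYB (63.2% and 46.7%) letters were more frequent in members. KLF and SP letters can overlap.

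The choice of 20 kb left out regions of similar kind. Just inside the *Cd1d1* window, 624 bp from its edge, lay the region with 96.8 to 98.98, and 389 bp outside it one with 63.3 at DN and 21.1 at DP, then 0 at SP4 and 43.99 at SP8. Beyond the 3′ end of the *Slamf1* window, 246 bp outside, an SP8-only region had a percentile of 65.6, beside 65.0 for the highest SP8-only member. At *Slamf6* the first region inside the 5′ edge was the one absent at DN, 1631 bp from the edge, and the nearest region outside lay 47731 bp away. That gap is part of a stretch of 49361 bp without a peak at any stage, which takes in much of *Cd84*. Repeats made up 54.9% of that stretch.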

How the data were processed

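ATAC-seq was run on 16 libraries, from thymocytes of 4 mice sorted at 4 stages. The authors used BWA for alignment to mm10 and Picard to drop duplicates. Only proper pairs that mapped uniquely entered, and libraries were down-sampled to the median depth. The libraries of a stage were pooled before MACS2 was run at an FDR of 5%, and blacklisted sites were left out. Pooling removes the spread between mice, and a site without a peak may hold signal under the threshold. Depth per library is not in the lists. The deposited score of each peak, which MACS2 derives from the q-value, was not used. Heights rest on the deposited fold enrichment, the ratio of summit reads to local background. The deposited −log10 q-value served in alternatives.

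Peaks were merged with Python 3.11.15, pandas 2.3.3 and numpy 2.4.6 where they shared at least 1 bp. The height of a region was the percentile of its highest peak among the peaks of that stage, with ties counted at the middle and 0 without a peak. Stages were compared in 4 pairs, over the regions called at 1 or both stages of the pair. Genes came from GENCODE M21 and sequence from RefSeq GRCm38.p6, read with pysam 0.24.0. Intervals were computed with scipy 1.17.1. With 1 list per stage no test was made, and the share over all regions stands beside most counts. Scripts were tested on simulated data.

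Regions were named if they lay on a start site, were among the 3 highest of a gene, differed by 25 points in a pair of stages, or were called at a single stage at the 50th percentile or above. The members, gene lists and motifs were chosen with earlier results of these data known. Alternatives were a stricter q-value of 0.001, gene bodies alone, flanks of 50 kb, any overlap with the window, lists of equal length, merging only at 50% of the shorter peak, heights by q-value, differences of 40 or 10 points and motif windows of 100 bp. Reads were not analysed here. The sequence of 1 region and the values of some marker genes are not reported here.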

Additional observations from a re-analysis of the deposited data

How the results depend on the processing

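The limits of these values are that each stage is 1 pooled list, that a threshold decides what is called, and that the DN list is the longest. No paired analysis was possible because each stage has 1 pooled list over its mice and the counts come from no test, and leaving out a mouse was impossible for the same reason. With a q-value of at most 0.001, with any overlap with the window, with merging at 50% of the shorter peak and with heights by q-value, every count of peaks, stage classes and stage differences that was recomputed stayed within 1.5 times the reported one. With lists of equal length, DN-only regions numbered 2 and regions lower at SP8 than at SP4 numbered 3. In gene bodies alone, the peaks numbered 19 at DN and 21 at DP, then 14 at SP4 and 20 at SP8. There 14 regions were called at all 4 stages, 4 at 2 or 3 of them and 8 at 1, of which 2 were DN-only, 0 SP4-only and 3 SP8-only. From DN to DP 1 was higher and 5 lower, from DP to SP4 3 were higher, from DP to SP8 4 were higher and 3 lower, and from SP4 to SP8 3 were higher and 0 lower. With flanks of 50 kb, the peaks numbered 74 at DN, 76 at DP and 72 at SP4, with 25 regions called at 2 or 3 stages and 34 at 1 (7 DN-only, 7 DP-only and 7 SP4-only). Higher regions numbered 7 from DN to DP and 13 from DP to SP4, and 11 were lower at SP8 than at SP4. Windows of other sizes hold other numbers of regions by construction. At 40 points, 2 regions were higher and 4 lower from DN to DP, 4 higher from DP to SP4, 8 higher and 3 lower from DP to SP8, and 2 lower from SP4 to SP8. At 10 points the higher and lower regions numbered 9 and 20 from DN to DP, 17 and 11 from DP to SP4, 22 and 14 from DP to SP8, and 17 and 15 from SP4 to SP8. SP8-only regions were 11.5% to 18.2% of members under the alternatives that could move them, and 4.13% to 7.05% of all regions. The start-site differences of *Slamf6* and *Slamf7* kept their direction with the stricter q-value, lists of equal length and heights by q-value.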
